A study of Mus musculus with 10 samples.

Results

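The 6 genes described here code for cell-surface molecules by which stromal cells of bone marrow hold haematopoietic stem and progenitor cells. They are Cdh2 (N-cadherin), Cdh11 (cadherin-11 or OB-cadherin), Vcam1, Icam1, Alcam (CD166) and Cd44. They were chosen by symbol among 19938 measured genes, and each is read by exactly 1 probe set that carries its symbol alone. RNA came from osteoblastic lineage cells, the bone-forming cells and their precursors, of 5 BA mice and 5 control mice, with 1 mouse per array and no pooling. BA mice carry Scl-tTA and TRE-BCR/ABL, so that a transactivator expressed from the Scl promoter, which is active in blood stem and progenitor cells, turns on the leukaemia fusion gene BCR/ABL once doxycycline is gone. The controls were matched for age and their genotype is not described further in the labels. Mice of both groups were C57BL/6, lost doxycycline at 5 weeks of age and were taken 5 to 6 weeks later, when the BA mice had a myeloproliferative disease. Cells were freed from crushed, washed bone with collagenase and sorted after staining with antibodies to CD31, CD45, CD51, Sca-1 and blood lineage antigens. RNA of 500 to 2300 cells was amplified and hybridised to Affymetrix mouse Gene ST 1.0 arrays.

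Cadherins are calcium-dependent receptors that bind the same or a like cadherin on the next cell and are tied to actin by catenins. VCAM-1, ICAM-1 and ALCAM belong to the immunoglobulin family. VCAM-1 is bound by the integrin alpha4 beta1 of blood cells, ICAM-1 by integrins with the beta2 chain, and ALCAM by CD6 and by ALCAM itself. CD44 is the main receptor for the matrix sugar hyaluronan and is linked to actin by ezrin, radixin and moesin. In marrow, VCAM-1 is a classic anchor of stem and progenitor cells on stroma, and inflammatory cytokines induce ICAM-1 and VCAM-1 in many cell types.

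All values are the deposited log2 levels, on which a difference of 1 is a doubling, and differences are BA minus control. Per array, the lower quartile of all genes lay at 5.22 to 5.40, the median at 6.04 to 6.17 and the upper quartile at 6.90 to 7.04. No detection calls were used, so signal over background was not judged for any gene. Osteoblast markers averaged 8.82 to 9.77 on BA and 9.39 to 10.1 on control arrays, and chondrocyte markers 10.7 to 11.2 on BA and 10.5 to 11.1 on control arrays, so cartilage transcripts were present beside those of bone. On BA replicate 5, Ptprc (CD45) stood at 9.29, against 5.73 to 5.88 on the other BA arrays and 5.54 to 5.90 on control arrays. Control replicate 5 stood apart on the second principal component, at -54.4, and held the highest Pecam1 (CD31), 6.94. The labels do not give the sex of the mice. Xist, the RNA that coats the silenced X chromosome, stood high on BA replicates 2, 4 and 5 and control replicates 4 and 5 (9.81 to 10.7) and low on the other 5 arrays (3.85 to 5.08).

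The 6 genes parted into 3 patterns. Cdh11, Cdh2 and Vcam1 averaged 3.74-fold, 2.32-fold and 2.22-fold lower in BA cells, Cd44 averaged 2.16-fold and Icam1 1.31-fold higher, and Alcam differed by a factor of 1.04. Of the 6, 4 averaged lower in BA cells, as did 62.1% of all genes, and 2 averaged higher, as did 37.9%. In limma, at a threshold of 0.05 for p-values adjusted across all genes (Benjamini-Hochberg), 0 of the 6 passed, where 1 of all 19938 did (0.00502%). At an unadjusted limma p under 0.05 stood 3 of the 6, against 9.40% of all genes. These were Cdh11 and Cdh2 on the lower side (5.27% of all genes) and Cd44 on the higher side (4.13%). The BA and control arrays were fully apart for 0 of the 6 and for 1.67% of all genes. The median difference was -0.60 over the 6 genes and -0.06 over all genes. Since bulk RNA was measured, fewer cells that express a gene and less of its RNA per cell cannot be told apart.

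**Figure D1:**
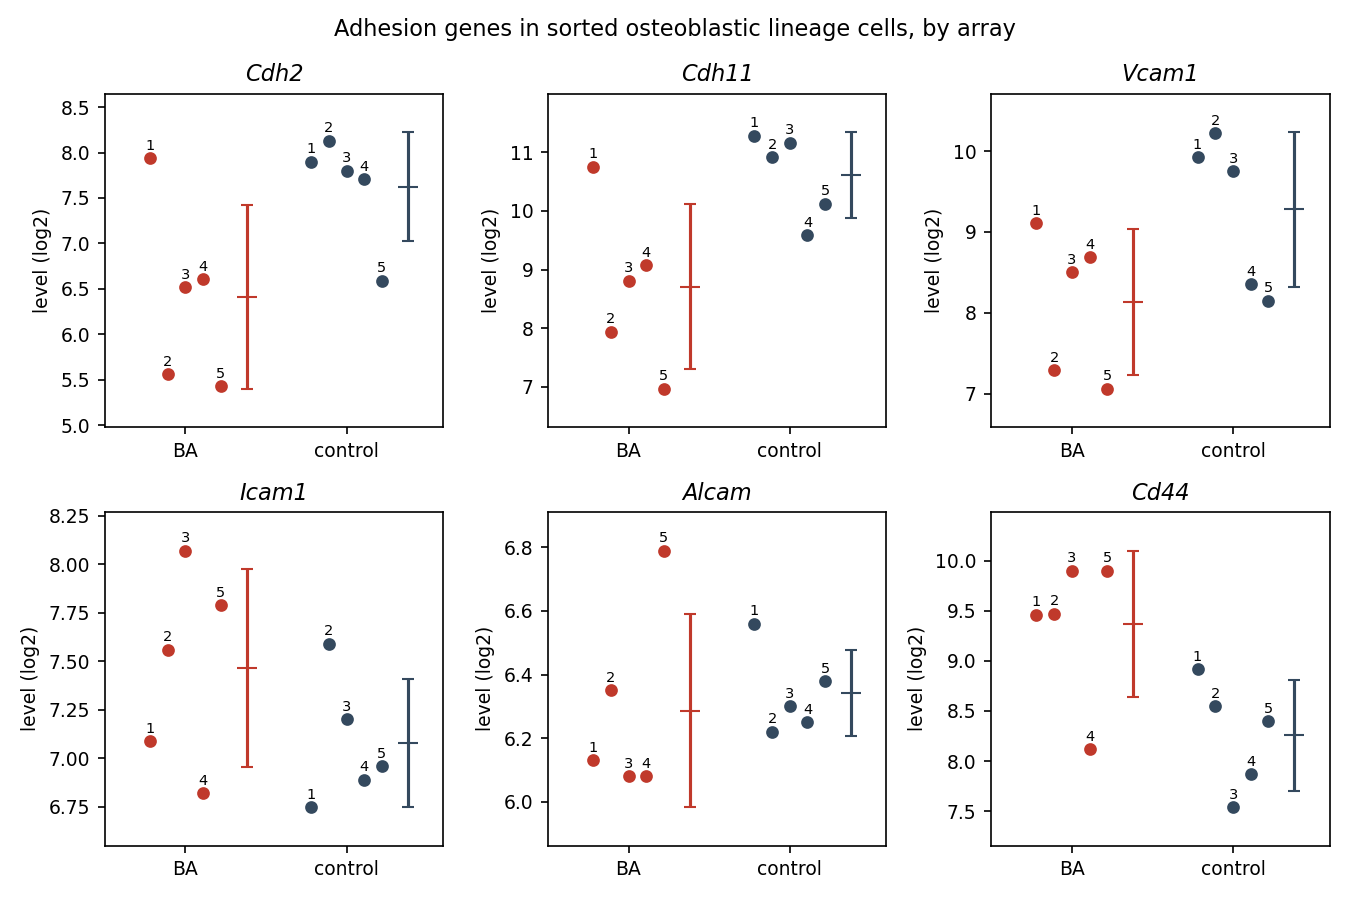
Log2 level of each adhesion gene on every array, BA left of control in each panel, with the replicate number above each point and the mean with its SD beside each group (n = 5 mice). For Cdh11, 4 BA arrays lie below the lowest control array, and for Cd44, 4 BA arrays lie above the highest control array.

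Cdh11, a cadherin typical of mesenchymal and osteoblastic cells, had levels of 10.75, 7.94, 8.81, 9.08 and 6.97 in BA replicates 1 to 5, against 11.28, 10.92, 11.16, 9.59 and 10.12 in control replicates 1 to 5. BA replicates 2 to 5 lay below every control, while BA replicate 1 lay inside the control range. Group means were 8.71 ± 1.41 in BA and 10.61 ± 0.73 in control cells (SD, n = 5 each). The difference was -1.90 ± 0.63 (SE), with a 95% interval of -3.30 to -0.51 and an adjusted p of 0.477 in limma. An exact two-sided permutation test of the means, unadjusted, gave p = 0.0317, where 0.00794 is the smallest p that this design allows. Within arrays of high Xist (BA replicates 2, 4 and 5, control replicates 4 and 5) the difference was -1.86 ± 0.61 (SE). Within those of low Xist (BA replicates 1 and 3, control replicates 1 to 3) it was -1.34 ± 0.57. These fits rest on few arrays, here and for the genes below. Another 3 probe sets carry Cdh11 together with other gene symbols and were not used. Their differences were -0.15, 0.12 and -0.06, around levels of 8.56 to 11.1.

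N-cadherin, coded by Cdh2, is the cadherin proposed to join stem cells to bone-lining osteoblasts. Cdh2 levels were 7.94, 5.56, 6.52, 6.61 and 5.43 in BA replicates 1 to 5 and 7.90, 8.13, 7.80, 7.71 and 6.59 in control replicates 1 to 5. Here 3 BA arrays lay below every control, BA replicate 4 was level with the lowest control, and BA replicate 1 was the second highest of all arrays. The means were 6.41 ± 1.01 in BA and 7.63 ± 0.60 in control cells (SD, n = 5 each). They differed by -1.21 ± 0.47 (SE), with a 95% interval of -2.25 to -0.18 (adjusted p = 0.502, limma). The exact permutation p was 0.0873, unadjusted. The lowest control was replicate 5, the array that also held the highest endothelial marker mean (6.10 against 5.51 to 5.75 on the other controls). The markers were uneven on it. Pecam1 (6.94) and Tek (5.61) stood well above the other controls, and Erg (8.44) was level with control replicate 4 (8.41). Tie1, Robo4, Esam and Emcn were highest by less, while Cdh5, Kdr and Flt1 lay inside the range of the other controls. The part of endothelial cells in the Cdh2 level of control replicate 5 was not tested. Within the arrays of low Xist the difference was -0.71 ± 0.43 (SE), and within those of high Xist it was -1.28 ± 0.49.

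The BA minus control difference was not shown to differ between the cadherins. Cdh2 minus Cdh11 on the same array averaged -2.30 ± 0.47 in BA and -2.99 ± 0.68 in control cells (SD, n = 5 each). The difference of 0.69 had a 95% interval of -0.16 to 1.54 and an exact permutation p of 0.111, also 0.111 when adjusted over the 2 gene pairs tested in this way. Without control replicate 4 it was 0.97, with an unadjusted exact p of 0.0238. With BA replicate 5 and control replicate 5 both left out it was 0.365, with an unadjusted exact p of 0.40.

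Vcam1 showed the same order of arrays at its low end. Its levels were 9.11, 7.29, 8.50, 8.69 and 7.06 in BA replicates 1 to 5, against 9.93, 10.22, 9.75, 8.35 and 8.15 in control replicates 1 to 5. BA replicates 2 and 5 were the lowest, and the other 3 BA arrays lay between control replicates 4 and 5 on one side and control replicates 1 to 3 on the other. Means of 8.13 ± 0.90 in BA and 9.28 ± 0.96 in control cells (SD, n = 5 each) differed by -1.15 ± 0.52 (SE). The 95% interval ran from -2.31 to 0.01 (adjusted p = 0.533, limma), and the unadjusted exact permutation p was 0.0873. The controls themselves split by Xist: the 2 controls with high Xist stood at 8.35 and 8.15 and the 3 with low Xist at 9.75 to 10.22. The BA minus control difference was -0.57 ± 0.51 (SE) within arrays of high Xist and -1.16 ± 0.26 within those of low Xist. It was -0.88 ± 0.34 with Xist as a covariate over all arrays.

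Cd44 differed in the other direction. It had 9.46, 9.47, 9.90, 8.12 and 9.90 in BA replicates 1 to 5, against 8.92, 8.55, 7.54, 7.87 and 8.40 in control replicates 1 to 5. All BA arrays except replicate 4 lay above every control. The means of 9.37 ± 0.73 in BA and 8.26 ± 0.55 in control cells (SD, n = 5 each) differed by 1.11 ± 0.37 (SE). Its 95% interval was 0.30 to 1.93, with an adjusted p of 0.477 in limma and an unadjusted exact permutation p of 0.0317. Without BA replicate 4 the difference was 1.43, and its adjusted p, 0.208, was the lowest that any of the 6 genes reached under any alternative. Blood cells also express Cd44, and the share of its RNA that came from them was not measured. Ptprc was 9.29 on BA replicate 5 and 5.73 on BA replicate 3, the arrays with the highest Cd44. With the mean of 9 pan-haematopoietic markers as a covariate the difference was 0.97 (unadjusted p = 0.0327 and adjusted p = 0.687, limma). It was 1.03 ± 0.55 (SE) within arrays of high Xist and 1.34 ± 0.44 within those of low Xist.

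Icam1 levels were 7.09, 7.56, 8.07, 6.82 and 7.79 in BA replicates 1 to 5, against 6.75, 7.59, 7.20, 6.89 and 6.96 in control replicates 1 to 5. BA replicates 3 and 5 were the highest, control replicate 2 lay above the other 3 BA arrays, and the groups overlapped widely. Mean levels were 7.47 ± 0.51 in BA and 7.08 ± 0.33 in control cells (SD, n = 5 each). The difference of 0.39 ± 0.25 (SE) had a 95% interval of -0.16 to 0.94 (adjusted p = 0.587, limma), and it was 0.24 without BA replicate 3. Within arrays of high Xist it was 0.47 ± 0.31 (SE) and within those of low Xist 0.40 ± 0.39. Set against Icam1 on the same array, Vcam1 was 0.66 ± 1.24 higher in BA and 2.20 ± 0.84 higher in control cells (SD, n = 5 each). These log2 offsets compare different probe sets, so only their change counts. It was -1.54, with a 95% interval of -3.08 to 0.01 (exact permutation p = 0.0635, or 0.111 adjusted over the 2 gene pairs). Without each array in turn its unadjusted exact p ran from 0.0397 to 0.127. It lay between 0.0397 and 0.0476 without BA replicate 1, BA replicate 4 or control replicate 5. Without each other array it was 0.0635 or more.

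Stretches of 250 bases before the starts of Icam1 and Cd44, as RefSeq's promoter table places them, are shown because these are the 2 genes that averaged higher in BA cells. That table held such a window for 3 of the 6 genes, the other being Alcam. Capitals mark matches to GGNNNTTCC on either strand (GGAANNNCC on the printed one), a short form of the site bound by NF-kB, the factor through which cytokines induce ICAM-1. Both are printed 5′ to 3′ on the gene's strand in build GRCm38.p6. Icam1 lies at chr9:21015690-21015939 on the plus strand and Cd44 at chr2:102901666-102901915 on the minus strand.
Icam1: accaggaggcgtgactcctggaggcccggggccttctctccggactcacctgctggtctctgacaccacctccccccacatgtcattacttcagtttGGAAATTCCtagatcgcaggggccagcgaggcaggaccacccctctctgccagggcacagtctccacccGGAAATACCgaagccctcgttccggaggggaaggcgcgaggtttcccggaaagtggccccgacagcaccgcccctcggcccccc
Cd44: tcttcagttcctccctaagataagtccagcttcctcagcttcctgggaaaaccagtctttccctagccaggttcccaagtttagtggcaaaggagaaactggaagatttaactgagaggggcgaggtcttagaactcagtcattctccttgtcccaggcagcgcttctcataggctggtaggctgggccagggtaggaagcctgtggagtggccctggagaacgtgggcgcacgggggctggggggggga

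Icam1 held the letters at 2 positions, the first matching the pattern on both strands, 153 to 145 bases before the start, and the other 84 to 76 bases before it. The windows of Cd44 and Alcam held them at 0 positions. Of all 32851 windows in the table, 15.7% held at least 1 match, so the letters are common. A match is a description of the sequence and not evidence of binding in these cells.

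Alcam, which marks mesenchymal progenitors and osteoblasts, lay near the array median and differed least. Its levels were 6.13, 6.35, 6.08, 6.08 and 6.79 in BA replicates 1 to 5 and 6.56, 6.22, 6.30, 6.25 and 6.38 in control replicates 1 to 5. BA arrays held both the lowest and the highest values. The means of 6.29 ± 0.30 in BA and 6.34 ± 0.14 in control cells (SD, n = 5 each) differed by -0.06 ± 0.15 (SE), and the 95% interval of -0.38 to 0.27 bounds the difference (adjusted p = 0.892, limma). The highest value, on BA replicate 5, coincided with the highest pan-haematopoietic mean (8.20 against 5.87 to 6.46 on the other BA arrays), and without that array the difference was -0.18. Within arrays of high Xist it was 0.092 ± 0.25 (SE) and within those of low Xist -0.26 ± 0.17. The part of blood cells in that value was not tested.

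**Figure D2:**
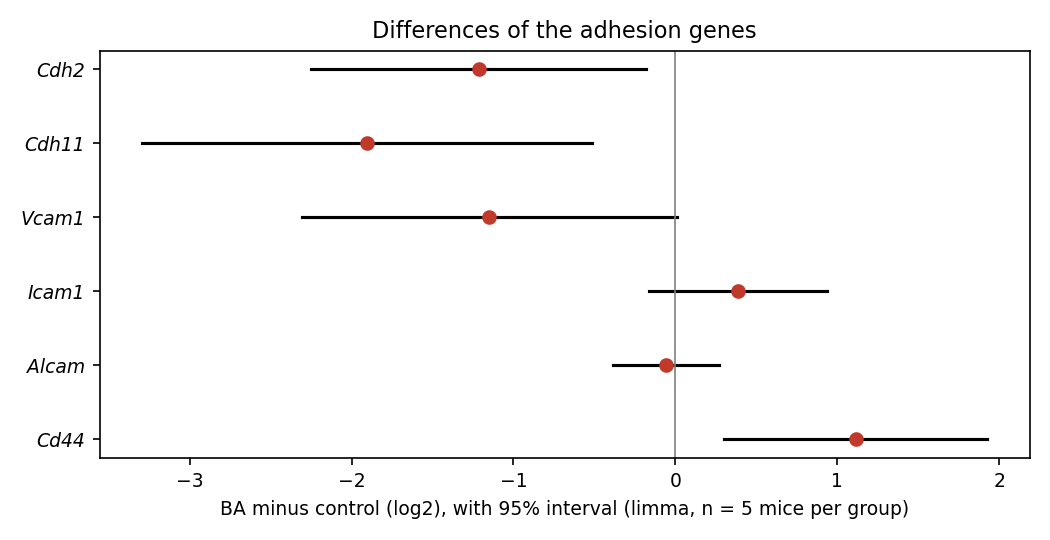
BA minus control difference of each adhesion gene on the log2 scale (points) with its 95% interval from limma (lines), n = 5 mice per group. The intervals of Cdh2, Cdh11 and Cd44 do not cross 0, and none of the 6 genes passed after adjustment over all genes.

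The BA samples were uneven, and the genes did not follow the same arrays. Of the 6 genes, 5 had a larger SD in BA than in control cells, Vcam1 being the exception, while 48.5% of all genes did. Across the 10 arrays Cdh2, Cdh11 and Vcam1 varied together. Pearson's r was 0.920 for Cdh2 with Cdh11 (Spearman's rho 0.867), 0.909 for Cdh11 with Vcam1 (rho 0.855) and 0.900 for Cdh2 with Vcam1 (rho 0.903). Permutation tests of the 15 gene pairs, with 100000 permutations, gave these 3 pairs an adjusted p of 0.00215 each for r and of 0.0128, 0.0128 and 0.0099 for rho. The permutations shuffled all 10 arrays without regard to group, so these p-values also take in the difference between BA and control. Without BA replicates 2 and 5, the arrays farthest from the median, r was 0.797, 0.783 and 0.752. With the group means removed it was 0.862, 0.867 and 0.848. Within BA arrays r was 0.979, 0.934 and 0.937, and within control arrays 0.49, 0.89 and 0.795. These rest on 5 arrays each, and like the r with group means removed they were given no p. No correlation was taken within arrays of high or of low Xist, which number 5 each. BA replicates 2 and 5 were the lowest 2 arrays for all 3 genes, and control replicates 1 to 3 were among the 4 highest. The arrays share probe chemistry, amplification and whatever mix of cells each sort held, and which of these the 3 genes follow was not tested.

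For Icam1 with Cd44, r was 0.653 and rho 0.596 (permutation p = 0.0439 and 0.0746, adjusted p = 0.165 and 0.280 over the 15 pairs), and r was 0.294 without BA replicates 3 and 5. None of the remaining 11 pairs, all of them with Icam1, Alcam or Cd44, had an adjusted permutation p under 0.05. Cd44 with Cdh11 had r = -0.546 over all arrays and -0.131 with the group means removed.

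**Figure D3:**
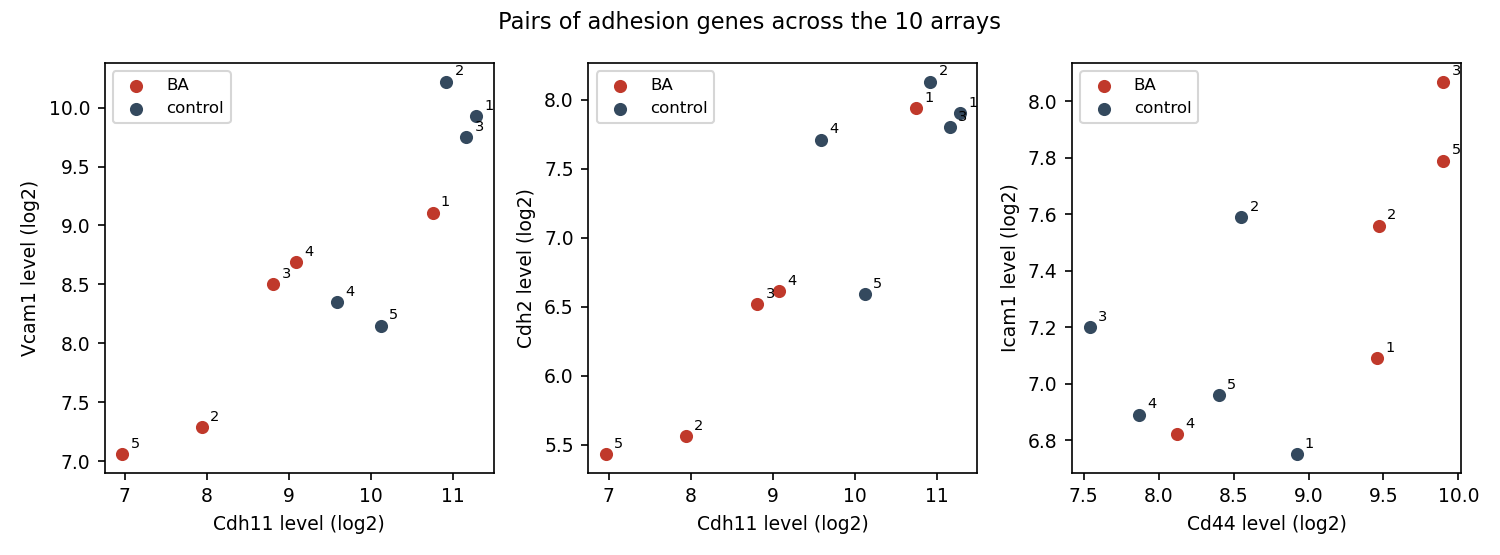
Log2 levels of Vcam1 and of Cdh2 against Cdh11, and of Icam1 against Cd44, with 1 point per array and its replicate number. In the first and second panels BA replicates 2 and 5 are lowest on both axes and control replicates 1 to 3 lie at the upper right.

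The genes most like each of the 6 over the 10 arrays were taken from 9529 named genes with a level above the median, by Pearson's r. They were picked as the highest of many values, so r is a description and has no p. Most like Cdh11 were Igfbp5 (r = 0.972), which codes for a binding protein of insulin-like growth factors, Ptprg (0.954) and Lepr (0.949), the leptin receptor of perivascular stroma. For Vcam1 they were Ptprd (0.983), the endocan gene Esm1 (0.980) and Mme (0.974), which codes for neprilysin or CD10. Cdh2 was most like Esm1 (0.942), Cdh11 (0.920) and the Wnt inhibitor Dkk1 (0.917). Lepr differed by -1.99 ± 0.60 (SE) and did not pass (adjusted p = 0.454, limma). Cd44 was most like Znhit1 (r = 0.917), the inducible prostaglandin synthase gene Ptgs2 (0.917) and Gtpbp4 (0.914). Icam1 was most like Timm10 (0.934), the stress-induced kinase gene Plk2 (0.924) and Spidr (0.912). Alcam was most like Sorl1 (0.933), Fermt3 (0.892), which codes for the kindlin of blood cells, and Rnf167 (0.869).

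Marker levels of the cells that a sort can hold give the background to these patterns. The mean of 7 stromal progenitor markers was 8.23, 7.22, 7.61, 7.83 and 6.57 in BA replicates 1 to 5 and 9.84, 9.79, 8.95, 7.69 and 7.74 in control replicates 1 to 5. BA replicate 1 was thus the highest BA array and BA replicate 5 the lowest of all, as for Cdh11, Cdh2 and Vcam1, and the controls with low Xist were the 3 highest. All 7 markers averaged lower in BA cells (62.1% of all genes did), with 0 past the threshold and 4 lower at an unadjusted p under 0.05 (5.27% of all genes). Among them were Adipoq (-2.13 ± 0.53, SE) and the chemokine gene Cxcl12 (-1.60 ± 0.59). Their part in the adhesion gene values was not tested.

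Of 10 pericyte and smooth muscle markers, 9 averaged lower, against 62.1% of all genes. Of these, 6 were at an unadjusted p under 0.05, against 5.27% of all genes, and 0 passed the threshold. Their mean lay at 6.61 to 7.21 on BA and 7.54 to 7.78 on control arrays, without overlap. Differences were -1.40 ± 0.35 (SE) for Myh11, -0.83 ± 0.23 for Rgs5 and -0.92 ± 0.26 for Tagln. Of 6 measured osteoblast markers, 4 averaged lower and 2 higher (62.1% and 37.9% of all genes), with a median difference of -0.22. Col1a2 (-1.16 ± 0.31), Col1a1 (-1.25 ± 0.34) and Dmp1 (-0.42 ± 0.17) had the smallest p, while Ibsp, at 12.70 in BA and 12.71 in control cells, differed by -0.01, Sp7 by 0.03 ± 0.43 and Alpl by 0.47 ± 0.27. Among chondrocyte markers, Matn3 (0.51 ± 0.27), Sox9 (0.20 ± 0.11) and Col10a1 (-0.35 ± 0.24) had the smallest p.

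Endothelial cells carry VCAM-1, ICAM-1 and CD44 as well. The mean of 10 endothelial markers lay at 5.51 to 5.69 on BA and 5.51 to 6.10 on control arrays, and the differences with the smallest p were -0.18 for Flt1, -0.18 for Tie1 and -0.25 for Tek. For 9 pan-haematopoietic markers the range was 5.87 to 8.20 on BA and 5.64 to 6.62 on control arrays, with 1.39 ± 0.82 (SE) for Cd53, -0.14 ± 0.10 for Was and 0.74 ± 0.55 for Laptm5. For 9 macrophage markers it was 5.52 to 6.78 on BA and 5.44 to 5.88 on control arrays, with 0.95 ± 0.56 for Cd14, 0.22 ± 0.14 for Csf1r and 0.84 ± 0.56 for Cd68. For 10 neutrophil markers it was 7.27 to 9.91 on BA and 6.43 to 8.38 on control arrays, with 2.65 ± 0.96 for Cxcr2, 0.94 ± 0.40 for S100a8 and 1.07 ± 0.51 for S100a9. On average, 10 of 10 neutrophil, 7 of 9 macrophage and 6 of 9 pan-haematopoietic markers were higher in BA cells, and 3 of 10 endothelial markers. Of all genes 37.9% were, and 0 markers of these lists passed the threshold. BA replicate 5 was the highest array of the 3 blood cell lists. With BA replicate 5 and control replicate 5 both left out, a choice made after the data were seen, the differences were -1.59 for Cdh11, -1.23 for Cdh2, -1.17 for Vcam1, 1.02 for Cd44, 0.28 for Icam1 and -0.17 for Alcam.

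**Figure D4:**
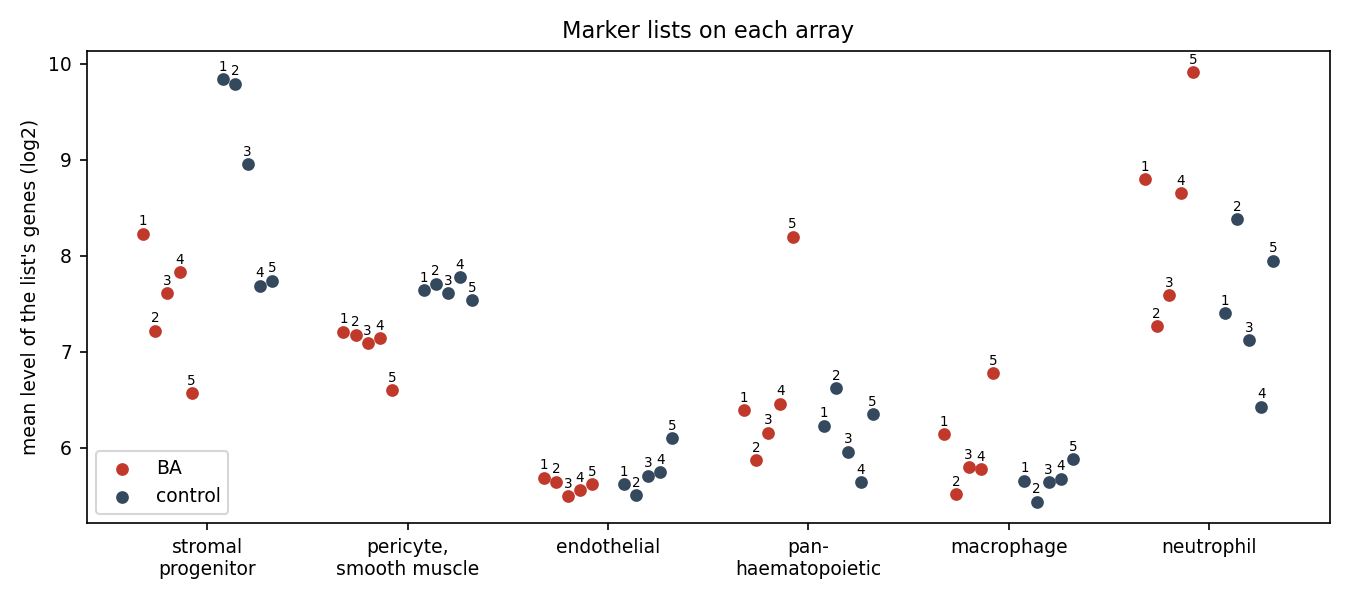
Mean log2 level of the genes of 6 marker lists on each array, BA left of control within each list, with replicate numbers. BA replicate 5 is highest in the 3 blood cell lists and lowest in the stromal progenitor list, and control replicate 5 is highest in the endothelial list.

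The partners and relatives of the 6 molecules were read from lists of the pathway, and none of their genes passed the threshold over all genes. Of 12 other cadherins, 11 averaged lower in BA cells (62.1% of all genes did), but most by little, with a median difference of -0.11. Cdh13, the lipid-anchored T-cadherin, which binds adiponectin, was the exception. It had 6.17, 6.55, 6.32, 5.71 and 5.95 in BA replicates 1 to 5 and 7.01, 6.99, 6.85, 6.86 and 6.56 in control replicates 1 to 5. All BA arrays lay below all controls, BA replicate 2 just under control replicate 5, and 1.67% of all genes had groups apart. The difference was -0.71 ± 0.16 (SE), with an adjusted p of 0.384 in limma. Cdh6 (-0.25 ± 0.12) and Cdh8 (-0.19 ± 0.12) came next by p.

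Among 6 catenins and catenin-linked genes, differences were 0.32 ± 0.24 (SE) for Ctnnd1 (p120-catenin), 0.30 ± 0.25 for Ctnna1 (alpha-catenin) and 0.12 ± 0.12 for Vcl (vinculin). Of the 6, 5 averaged higher (37.9% of all genes did), with a median difference of 0.15. Of the transcription factors of the cadherin switch in epithelial-to-mesenchymal transition, 2 of 6 averaged higher, near the 37.9% of all genes. Zeb1 differed by 0.70 ± 0.39, Zeb2 by -0.67 ± 0.49 and Twist1 by -0.22 ± 0.27.

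The integrin subunits that bind VCAM-1 and ICAM-1 belong largely to blood cells, and 3 of 9 averaged higher, near the 37.9% of all genes. Itgb1, the beta1 chain that most cells make, differed by -0.28 ± 0.18 (SE) and Itga4, its partner on blood cells, by 0.15 ± 0.22. Itgal, the alpha chain of the main ICAM-1 receptor of lymphocytes, differed by -0.01 ± 0.10. Itgb2 and Itgam differed by 0.78 ± 0.51 and 0.68 ± 0.49, and Itgb2 stood at 8.81 on BA replicate 5 against 5.85 to 6.11 on the other BA and 5.57 to 6.20 on control arrays. Cd6, the ALCAM receptor of lymphocytes, averaged 5.98 ± 0.19 in BA and 6.09 ± 0.15 in control cells (SD, n = 5 each).

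Other adhesion molecules of the immunoglobulin family varied little, with a median difference of -0.17. Of 18, 12 were lower on average, near the 62.1% of all genes. Those with the smallest p were Icam5 (-0.30 ± 0.11, SE), Icam4 (-0.51 ± 0.24) and Nectin1 (-0.23 ± 0.12). Among 4 measured selectin and selectin-ligand genes, Podxl (podocalyxin) differed by -0.30 ± 0.11, Selplg by -0.12 ± 0.15 and Sele, the endothelial selectin, by -0.03 ± 0.10. The arrays of the groups were apart for Podxl, as for 1.67% of all genes. Its means lay below the array medians, at 5.53 in BA and 5.84 in control cells.

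Around CD44, Ezr, which codes for ezrin, its link to actin, had 9.0, 8.54, 8.86, 8.11 and 9.10 in BA replicates 1 to 5 and 8.13, 7.89, 8.09, 7.92 and 7.89 in control replicates 1 to 5. As for Cd44, all BA arrays except replicate 4 lay above every control. The Ezr difference was 0.74 ± 0.18 (SE; adjusted p = 0.384, limma), against -0.13 ± 0.15 for Rdx (radixin), 0.05 ± 0.21 for Nf2 (merlin) and 0.03 ± 0.15 for Msn (moesin). Of 10 measured genes of hyaluronan synthesis, breakdown and binding, 8 averaged higher (37.9% of all genes did), most by little, with a median difference of 0.12. The hyaluronan synthase Has2 differed by 0.76 ± 0.40, Hmmr, another hyaluronan receptor, by 0.59 ± 0.45, and the synthase Has3 by -0.28 ± 0.10. The arrays of the groups were apart for Has3, as for 1.67% of all genes. Has3 means lay below the array medians, at 5.23 in BA and 5.51 in control cells.

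Proteases that shed these molecules from the cell surface went in both directions, 5 of 8 higher on average (37.9% of all genes were). Adam17, the sheddase of VCAM-1, differed by 0.91 ± 0.50 (SE), Adam8 by 0.50 ± 0.31 and Adam10, the main sheddase of N-cadherin, by -0.63 ± 0.42. Among 9 measured cytokines and receptors that induce ICAM-1 and VCAM-1, 5 averaged higher, against 37.9% of all genes. Il1a had 4.26, 6.71, 6.23, 5.69 and 8.35 in BA replicates 1 to 5 and 4.06, 4.08, 4.25, 4.07 and 4.49 in control replicates 1 to 5, so 4 BA arrays lay above every control. The difference was 2.06 ± 0.59 for Il1a, 1.24 ± 0.48 for Il1b and -0.68 ± 0.36 for the interferon receptor chain Ifngr1. Tnf, at 6.02 ± 0.62 in BA and 5.78 ± 0.18 in control cells (SD, n = 5 each), differed by 0.23 ± 0.26 (SE).

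**Figure D5:**
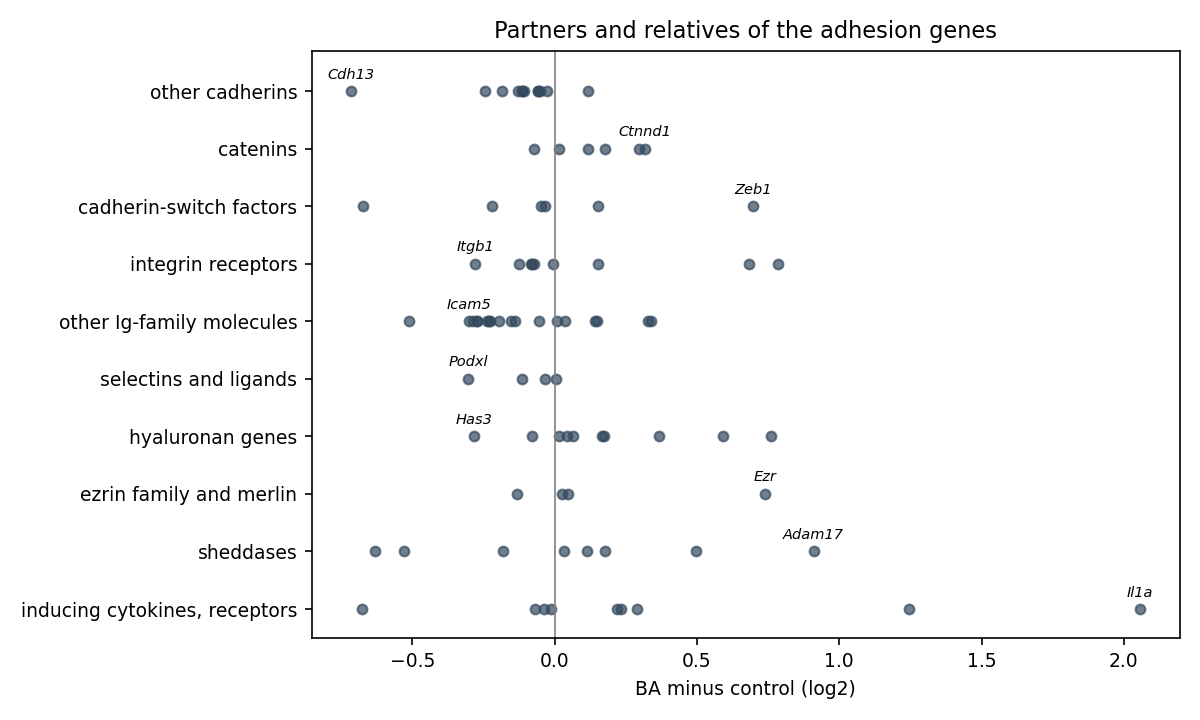
BA minus control difference on the log2 scale of every measured gene in 10 lists of partners and relatives of the adhesion molecules, 1 point per gene, with the gene of the smallest p named in each list. Most points lie near 0, and Il1a, at 2.06, lies farthest from it.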

How the data were processed

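Levels were measured on 10 arrays, 1 per mouse. The authors deposited log2 values for 35557 probe sets. GCRMA, which corrects background by probe sequence, normalizes and summarises probe sets, is named per the submitters' processing notes, without a version. Values ran from 1.21 to 13.7, from which the log base was inferred. Signal over background was not judged for dim probe sets, and precision is limited by the number of arrays.

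Genes were named from the platform annotation (21789 probe sets with 1 symbol, 1621 with several, 12147 with none). For 19856 of 19938 genes the gene ID was in the RefSeq table of assembly GRCm38.p6. Each gene took its probe set with the highest mean. The comparison of BA with control used limma (version 3.58.1, R 4.3.3; lmFit and eBayes, two-sided, without covariates), with Benjamini-Hochberg adjustment across all genes. Exact permutation tests ran over all 252 splits of the arrays. No set test was made. Scripts were tested on simulated data.

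The 6 genes and the 19 lists (155 of 163 entries measured) were chosen with earlier results of these data known. Genes named beside the 6 are the 3 of each list with the smallest p, a few fixed partners and the 3 most alike per gene. Msn, Ibsp, Sp7, Alpl, Tnf and Pecam1 lie outside that rule and were picked after their values were seen. Alternatives tried were quantile normalization, a replicate block, median centring, a filter on dim genes, trend and robust moderation, array weights, mean of probe sets, covariates, a looser threshold of 0.10 and leaving out arrays. The labels' replicate numbers were not shown to pair the mice: deviations of same-numbered arrays had r between -0.10 and 0.11.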

Additional observations from a re-analysis of the deposited data

Results flagged for a closer look

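Among the 12 groups of 5 arrays (6 genes, BA and control), 2 held an array that stood apart by Dixon's criterion, which flags about 1 in 20 groups by chance. Cd44 was 8.12 on BA replicate 4, against 9.46 to 9.90 on the other BA arrays. Cdh2 was 6.59 on control replicate 5, against 7.71 to 8.13 on the other controls.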

How the results depend on the processing

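None of the 6 genes passed the adjusted threshold under any of the 22 alternatives each that gave an adjusted p. Cdh2, Cdh11 and Vcam1 stayed lower and Cd44 and Icam1 higher in BA in all 23 alternatives, and the difference of Alcam became 0.092 within arrays of high Xist. Some of the 23 say nothing about direction. The difference cannot change with the replicate block, the filter on dim genes or trend and robust moderation. Nor can it with the mean of probe sets, as each gene has 1, or in the exact permutation test. In the exact permutation test without adjustment Cdh11 (-1.90) and Cd44 (1.11) had p = 0.0317, Cdh2 and Vcam1 0.0873, Icam1 0.19 and Alcam 0.73. Without each array in turn the differences ranged from -2.41 to -1.47 for Cdh11, -1.60 to -0.97 for Cdh2, -1.43 to -0.88 for Vcam1, 0.94 to 1.43 for Cd44, 0.24 to 0.55 for Icam1 and -0.18 to -0.0015 for Alcam. The number of the 6 at an unadjusted p under 0.05, 3 in the main comparison, then ranged from 2 to 5, the 5 without BA replicate 4. The Vcam1 minus Icam1 change ranged from -1.88 to -1.19 and was -1.58 (unadjusted exact p = 0.0476) with quantile normalization. The Cdh2 minus Cdh11 change ranged from 0.50 to 0.97 and was 0.365 without BA and control replicate 5 together. With the pan-haematopoietic mean as a covariate the differences were -1.64 ± 0.66 (SE) for Cdh11, -1.05 ± 0.50 for Cdh2 and -1.04 ± 0.58 for Vcam1. They were 0.97 ± 0.39 for Cd44, 0.32 ± 0.27 for Icam1 and -0.17 ± 0.13 for Alcam. In that fit 2 of the 6, Cdh11 and Cd44, were at an unadjusted limma p under 0.05, and Cdh2 no longer was. The number of all genes past the threshold, 1 in the main comparison, was 0 among genes above the median level, with the pan-haematopoietic covariate and without BA and control replicate 5 together, 2 with Xist as a covariate, and 0 to 13 without each array, the 13 without BA replicate 4. Of all genes, 1875 had an unadjusted p under 0.05. That number was 1019 among genes above the median level, where fewer genes were tested, 1107 and 1010 within arrays of high and low Xist, where fewer arrays were, and 1354 to 2513 without each array. The cause of the other shifts was not tested. With the replicate number as a block, 0 genes passed and 1669 had an unadjusted p under 0.05, 4 of the 6 among them. The same numbers were not shown to pair mice, since 1 of 5 BA arrays correlated best with the control of its own number. Exact permutation tests were not run for the pair changes with covariates or array weights.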
